A study of Mus musculus with 12 samples.

Results

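The genes of the proteasome were followed across the 4 groups of an array study of mouse quadriceps muscle. They were chosen by symbol in the array annotation: every gene whose symbol begins with Psma, Psmb, Psmc, Psmd, Psme or Psmg followed by a digit, each represented by its brightest probe set. This gave 48 of the 18193 genes with 1 symbol, and 46 of them passed the filter on dim probe sets and were tested among 12771 genes. The groups were C57Bl/6J mice given GW1516 at 5 mg/kg/day, AICAR at 250 mg/kg/day, both drugs together (the combination) or vehicle, each for 6 days. GW1516 activates the nuclear receptor PPARδ, and AICAR is a nucleoside that cells turn into a mimic of AMP and so switches on AMP-activated protein kinase. Each group had 3 arrays, and each array was hybridised with a pool of RNA from 3 mice. Whether 2 pools of a group could hold the same mice is not in the labels. The p-values therefore cover the scatter among pools, which may be partly technical, and 3 arrays a group limit the precision.

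The proteasome is the large protease that degrades proteins tagged with ubiquitin. Its 20S core is a stack of rings of alpha and beta subunits, with the active sites on the inner face of certain beta subunits, and the 19S cap on its end binds ubiquitin, unfolds the substrate with a ring of ATPases and feeds it into the core. Together they form the 26S proteasome. Immune cells, and many other cells under interferon, replace the active beta subunits with immunoproteasome subunits, other activators can take the place of the 19S cap, and dedicated chaperones assist assembly. In skeletal muscle the ubiquitin-proteasome route carries out much of the breakdown of contractile proteins during wasting, together with the muscle ubiquitin ligases Trim63 and Fbxo32. The transcription factor Nfe2l1 is known to raise proteasome subunit genes together through antioxidant response elements when proteasome activity is short.

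The 48 genes fell into 8 classes by role. These were 8 alpha subunits of the 20S core, 7 beta subunits, 4 immunoproteasome or thymoproteasome beta subunits, 6 ATPases and 11 other subunits of the 19S cap, 3 activators, 7 assembly chaperones, and 2 interacting proteins (Psmc3ip and Psme3ip1) that share the symbol but are not proteasome subunits. The constitutive 26S subunits are the alpha, beta and 19S genes, 31 of which were tested. Psma8, a testis-type alpha subunit, and Psmb11, the thymus-type beta subunit, lay below the filter. Their signals ranged from 1.14 to 22.6 for Psma8 and from 7.11 to 52.7 for Psmb11, and their 12-array means of 6.34 and 13.4 lay under the filter at a signal of 28.2. The members next above it were Psmb9 at 71.7, Psmc3ip at 86.7 and Psmb8 at 98.6. Psme2, the partner of Psme1 in the 11S activator, is named only on a probe set that carries 2 symbols and is not a member.

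The promoters are shown first for the 2 subunits that stood highest in the second GW1516 array, described below, and then for 5 constitutive subunits whose upstream bases hold the letters of an antioxidant response element. Sequences are from RefSeq on GRCm38.p6, read 5′ to 3′ on the strand of the gene. For Psma7, an alpha subunit, the 250 bases before the start (chr2:180042465-180042714, minus strand) and for Psmd4, the ubiquitin receptor of the 19S cap, the same stretch (chr3:95042615-95042864, minus strand) are given with the CCAAT box, or its reverse complement ATTGG, in capitals.
Psma7: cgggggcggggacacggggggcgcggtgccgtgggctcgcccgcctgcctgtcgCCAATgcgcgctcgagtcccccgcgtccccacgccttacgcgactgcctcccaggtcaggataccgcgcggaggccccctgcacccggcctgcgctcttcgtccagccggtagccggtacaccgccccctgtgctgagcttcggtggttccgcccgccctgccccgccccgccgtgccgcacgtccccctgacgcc
Psmd4: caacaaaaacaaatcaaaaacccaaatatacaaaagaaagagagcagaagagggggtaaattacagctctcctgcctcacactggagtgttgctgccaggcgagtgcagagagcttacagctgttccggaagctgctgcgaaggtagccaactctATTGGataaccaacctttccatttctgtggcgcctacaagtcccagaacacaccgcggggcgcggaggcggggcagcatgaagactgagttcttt

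The next 5 stretches are 60 bases long and have the antioxidant response element letters in capitals. They are from Psma4, an alpha subunit (chr9:54950706-54950765, plus strand), Psmb3, a beta subunit without an active site (chr11:97703374-97703433, plus strand), Psmb5, the chymotrypsin-like active subunit (chr14:54618009-54618068, minus strand), Psmb6, the caspase-like active subunit (chr11:70525297-70525356, plus strand), and Psmc2, a 19S ATPase (chr5:21786587-21786646, plus strand).
Psma4: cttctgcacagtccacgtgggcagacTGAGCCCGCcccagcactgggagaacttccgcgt
Psmb3: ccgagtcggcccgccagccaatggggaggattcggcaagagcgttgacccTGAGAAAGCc
Psmb5: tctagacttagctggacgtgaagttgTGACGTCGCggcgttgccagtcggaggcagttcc
Psmb6: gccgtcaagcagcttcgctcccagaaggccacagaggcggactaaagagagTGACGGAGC
Psmc2: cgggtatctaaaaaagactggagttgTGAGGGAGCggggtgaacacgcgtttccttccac

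The letters searched were TGACNNNGC and TGAGNNNGC for the antioxidant response element and CCAAT for the CCAAT box, on both strands of the 250 upstream bases. The table of promoters held 40 of the 48 genes. Either antioxidant response element pattern was present for 13 of these 40 genes (32.5%) and for 9 of 25 constitutive 26S subunits (36%), against 25.7% of the 27025 genes in the table. CCAAT was present for 16 of 40 (40%), against 37.5% of all genes. The element lay 47 bases before the start in Psmb5, 9 in Psmb6, 10 in Psmb3, 127 in Psma4 and 134 in Psmc2. A match describes these letters and is not a bound site.

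No proteasome gene passed an adjusted p of 0.05 in any of the 7 comparisons between groups or in the test over all 4 groups (limma, Benjamini-Hochberg adjustment over all genes). The same fit called 0.094% of all genes for GW1516 against vehicle, 0.00783% for AICAR against vehicle and 0.258% for the combination against vehicle. The smallest adjusted p among the members was 0.293 for GW1516, 0.73 for AICAR and 0.226 for the combination. The differences below are therefore values with their errors and not called changes. Most of these genes shared a high signal in a single array. The second GW1516 array had the highest signal of all 12 arrays for 34 of the 46 genes, against 14.5% of all genes.

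The second GW1516 array stood apart from the other 11 over all genes, with a score of 45.9 on the first principal component against −18.7 to 6.77, so the medians, the counts at an unadjusted p and the GW1516 differences of single genes that it moved are given without it too. The control ratios of 3′ to 5′ signal did not single it out, since they were 0.863 for Gapdh and 0.839 for Actb in it and lay between 0.802 and 0.880 and between 0.782 and 0.936 over all arrays. Muscle fibre markers were abundant in every array, and their summed signal over 10 genes was 211910 in the second GW1516 array, 219260 and 267020 in the other GW1516 arrays and 212570 to 220420 in vehicle arrays. It was 225370 to 228650 in AICAR and 239840 to 244400 in the combination, above every vehicle array. The fibre markers lay above vehicle for 10 of 10 in AICAR, 10 of 10 in the combination and 8 of 10 in GW1516, with 0 past the test. All 10 fibroblast and matrix markers lay below the vehicle mean in the second GW1516 array, with a summed signal of 16638 there, 32698 and 35228 in the other GW1516 arrays, 32277 to 42880 in AICAR, 30674 to 32285 in the combination and 30648 to 40808 in vehicle arrays. None of these 10 markers was near 0. The 8 leukocyte markers tested summed to 1673.1 in the second GW1516 array, 2475.5 and 2977.9 in the other GW1516 arrays, 2702.4 to 3145.6 in AICAR, 2015.4 to 2695.6 in the combination and 2259.9 to 3125.5 in vehicle arrays, while the T cell marker Cd3e and the B cell marker Cd79a lay below the filter. The 8 adipocyte markers tested had medians of 0.64 for GW1516, 0.86 for AICAR and 0.64 for the combination, with 8 of 8 above 0 in each and 0 past the test. Their summed signal overlapped between groups, at 7111.1 to 14113 in GW1516, 6915.9 to 19822 in AICAR, 6836.9 to 15825 in the combination and 5341.5 to 11389 in vehicle arrays. The 8 endothelial markers summed to 2046.0 to 2247.0 in GW1516, 2015.6 to 2168.2 in AICAR, 1918.3 to 2345.0 in the combination and 1927.5 to 2392.6 in vehicle arrays. The part of these cells in the values below was not tested. In whole muscle, fewer cells of a type and less RNA per cell cannot be told apart.

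**Figure D1:**
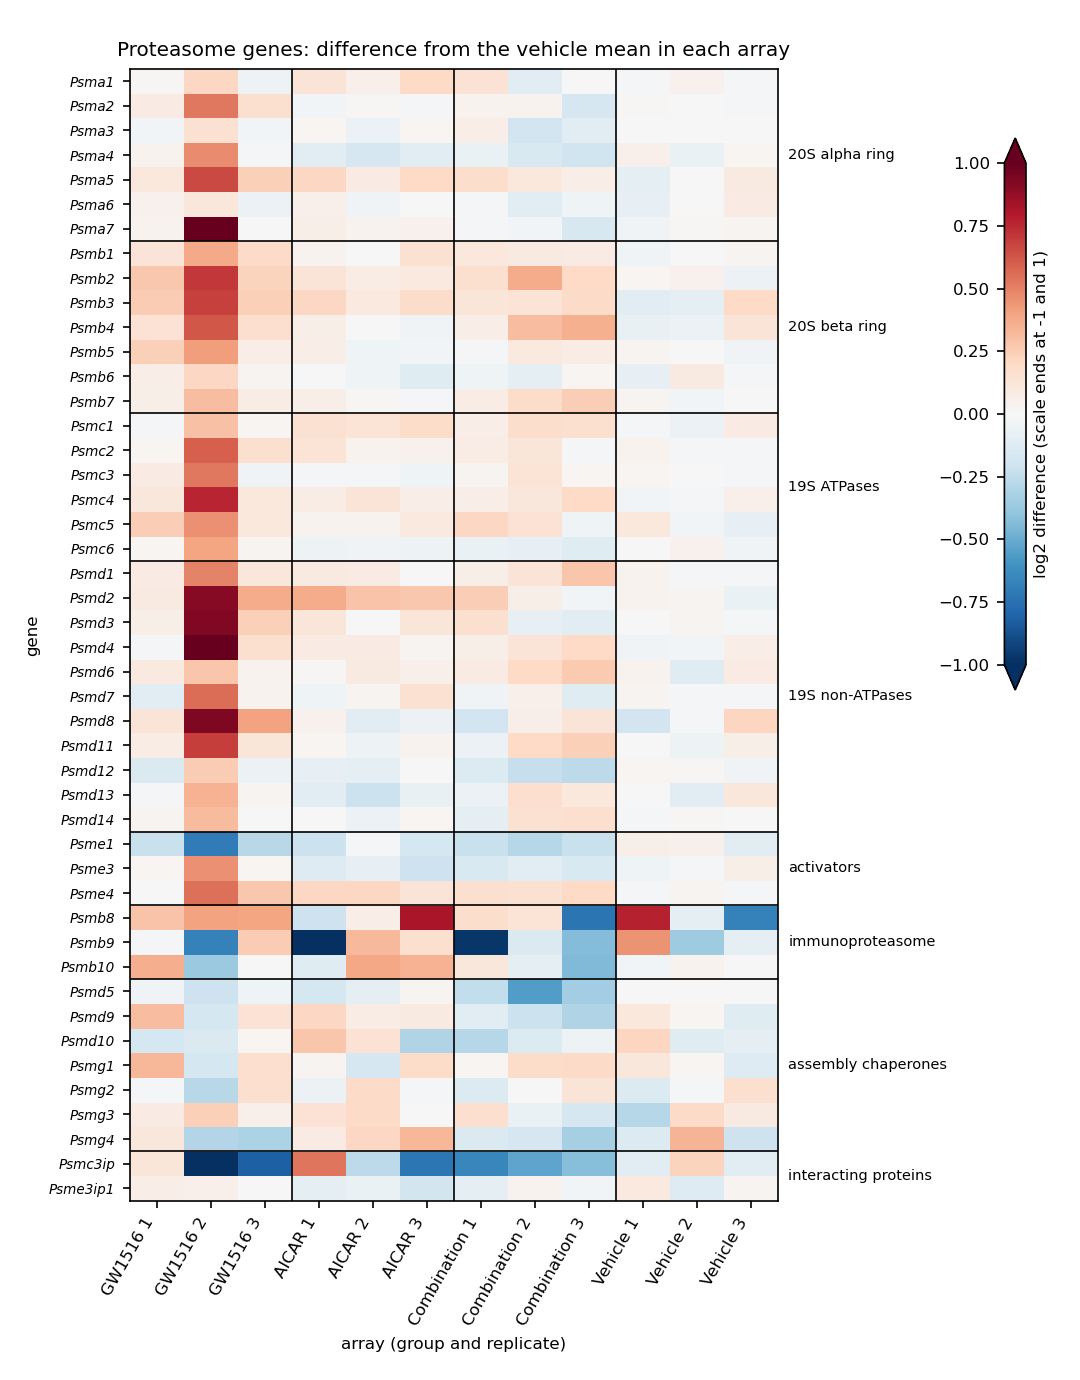
Log2 difference of each of the 46 proteasome genes tested (rows, by class) from the mean of the 3 vehicle arrays, in each of the 12 arrays (columns); red is above and blue below the vehicle mean, and colours saturate at 1 in either direction. The second GW1516 column is red through all 31 constitutive 26S subunits, with medians of 0.49 in it and 0.07 in each of the other GW1516 arrays.

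All 31 constitutive 26S subunits tested had their highest signal of the 12 arrays in the second GW1516 array (30 of 31 with quantile normalization). Their median difference from the vehicle mean was 0.07, 0.49 and 0.07 on the log2 scale in the 3 GW1516 arrays, 0.05, 0.01 and 0.03 in AICAR arrays, 0.06, 0.11 and 0.07 in combination arrays and within 0.01 of 0 in vehicle arrays. The median over all genes in the second GW1516 array was −0.05. The other 3 genes highest in that array were the activators Psme3 and Psme4 and the chaperone Psmg3. Psme1, Psmc3ip and the chaperones Psmg1 and Psmg2 had their lowest signal there, 4 of 46 against 19.8% of all genes.

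The largest values in that array were those of Psma7 and Psmd4, whose promoters are printed above. Psma7 had signals of 1250, 2685 and 1218 in GW1516 arrays, 1269, 1250 and 1256 in AICAR arrays, 1209, 1195 and 1094 in combination arrays and 1189, 1229 and 1241 in vehicle arrays. Psmd4 had 3002, 6562 and 3391 in GW1516 arrays, 3214, 3216 and 3087 in AICAR arrays, 3163, 3311 and 3488 in combination arrays and 2959, 2968 and 3173 in vehicle arrays. For both, the second GW1516 array alone lay apart at the brightest probe set. The log2 difference from the vehicle mean was 1.14 for Psma7 and 1.11 for Psmd4. A further probe set of each gene gave 1.12 and 1.20 there, while a dimmer one of Psmd4 gave −0.20. The further probe set of Psma7 was nearly as bright, with a mean signal of 1179 against 1300. It gave 0.44 for the combination and 0.26 for AICAR, where the brightest gave −0.07 and 0.05. Over the members, 37 further probe sets passed the filter in 21 genes. The sign in the second GW1516 array matched that of the brightest probe set for 29 of these 37 and for all 14 with a mean signal of at least 400. The sign of the difference of GW1516 from vehicle matched for 26 of the 37 and was opposite for 11. It matched for 12 of those 14.

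Among the other members, the difference in the second GW1516 array was 0.94 for Psmd8, 0.93 for Psmd3, 0.91 for Psmd2, 0.76 for Psmc4 and 0.71 for Psmb2, and among the constitutive 26S subunits it was least for the alpha subunits Psma6 at 0.11 and Psma3 at 0.16. Constitutive subunits with the antioxidant response element letters had a median difference there of 0.42 (9 genes, 0.11 to 0.68) and those without them 0.57 (16 genes, 0.16 to 1.14). Psma7 and Psmd4 were among those without the letters.

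GW1516 against vehicle asks what the PPARδ agonist alone did to these genes. The difference was above 0 for 38 of 46 genes, against 47.1% of all genes, with a median of 0.15 over the members and −0.01 over all genes. It was above 0 for all 31 constitutive 26S subunits (30 with quantile normalization), with medians of 0.16 for the alpha ring, 0.24 for the beta ring, 0.23 for the ATPases and 0.23 for the other 19S subunits. The assembly chaperones had a median of −0.05, with 3 of 7 above 0, and 0.07 with 4 of 7 above 0 without the second array. At an unadjusted p under 0.05, 17 members differed, 16 higher and 1 lower (Psme1), against 9.64% of all genes (4.48% higher and 5.16% lower). Without the second array the median over the members was 0.07, with 36 of 46 above 0, against 50.9% of all genes. The constitutive median was then also 0.07, with 26 of 31 above 0 at the brightest probe sets. Further probe sets with a mean signal of at least 400 differed in sign without the second array. They were below 0 for Psma5 (−0.0025), Psma6 (−0.045), Psmb4 (−0.16), Psmc2 (−0.07), Psmd4 (−0.04) and Psmd6 (−0.19). Of these genes, only Psma6 was also below 0 at its brightest. They were above 0 for Psma7 (0.16), Psmb3 (0.36) and Psmd11 (0.08 to 0.11). In that setting 8 members had an unadjusted p under 0.05, 7 higher and 1 lower, against 3.59% and 3.29% of all genes. The members were measured in the same arrays and many were high together in 1 of them, so these counts are not counts of independent results.

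**Figure D2:**
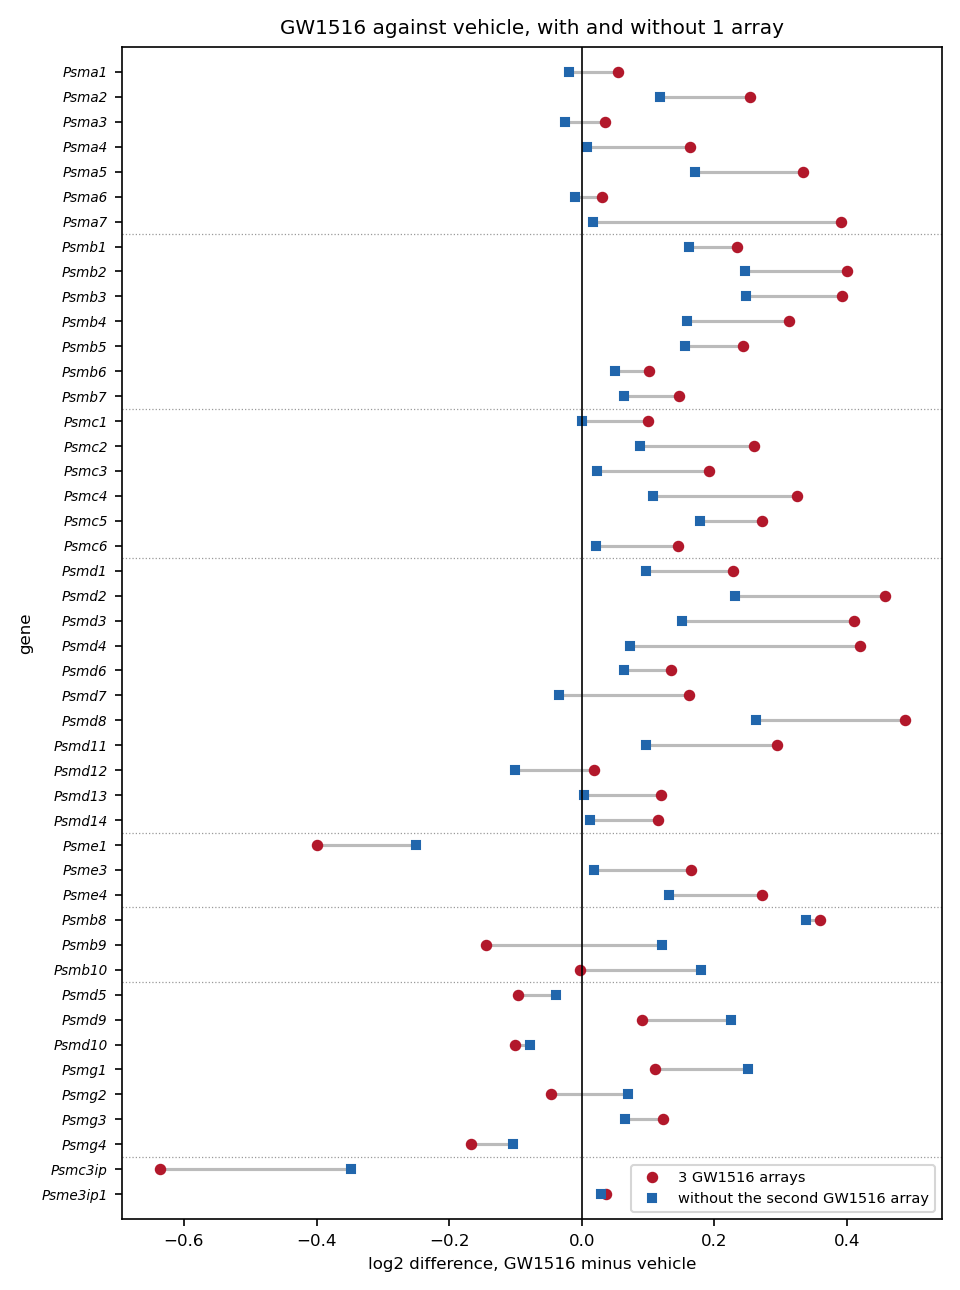
Log2 difference of GW1516 minus vehicle for each of the 46 proteasome genes (rows, by class, dotted lines between classes), from 3 GW1516 arrays (circles) and without the second (squares). With and without that array the difference was 0.39 and 0.02 for Psma7, 0.42 and 0.07 for Psmd4, 0.40 and 0.25 for Psmb2, and −0.40 and −0.25 for Psme1.

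In the beta ring, all 7 genes lay above the vehicle mean in each of the 3 GW1516 arrays. Psmb2, a beta subunit without an active site, had signals of 1736, 2362 and 1687 in GW1516 arrays, 1575, 1521 and 1541 in AICAR arrays, 1613, 1866 and 1658 in combination arrays and 1460, 1489 and 1383 in vehicle arrays. Every one of its 9 treated arrays was above the 3 vehicle arrays. The difference for GW1516 was 0.40 ± 0.112 (SE), with an adjusted p of 0.293, the smallest of the members, and without the second array it was 0.25 ± 0.0766 with an adjusted p of 0.524. At the brightest probe sets, Psmb2 and the ATPase Psmc4 were the only 2 members with all 9 treated arrays above vehicle, against 1.08% of all genes. All 9 lay below for 0 members, against 1.42%.

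Psmb3 had signals of 2437, 3274 and 2405 in GW1516 arrays, 2350, 2180 and 2314 in AICAR arrays, 2218, 2248 and 2328 in combination arrays and 1888, 1918 and 2341 in vehicle arrays. Its GW1516 arrays were above vehicle, while 1 vehicle array lay above 2 of the AICAR arrays and all 3 combination arrays. The difference for GW1516 was 0.39 ± 0.114 (adjusted p 0.346), and 0.25 ± 0.0880 without the second array. A second probe set of Psmb3 gave 0.60.

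Psmb4, a beta subunit without an active site, had signals of 4066, 5642 and 4125 in GW1516 arrays, 3831, 3666 and 3590 in AICAR arrays, 3835, 4539 and 4684 in combination arrays and 3486, 3527 and 4020 in vehicle arrays. All 3 GW1516 arrays were above vehicle, with a difference of 0.31 ± 0.118 (adjusted p 0.466), and 0.16 ± 0.0890 without the second array. A second, dimmer probe set of the gene gave 0.11 for GW1516, and −0.16 without the second array. For the combination it gave −0.33, where the brightest gave 0.24.

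Among the active-site subunits, Psmb5 had 4340, 4912 and 3853 in GW1516 arrays, 3842, 3555 and 3600 in AICAR arrays, 3629, 3919 and 3866 in combination arrays and 3752, 3687 and 3579 in vehicle arrays. Psmb6, nearest to 0 in its class, had 2794, 3067 and 2721 in GW1516 arrays, 2661, 2583 and 2447 in AICAR arrays, 2587, 2490 and 2694 in combination arrays and 2519, 2835 and 2646 in vehicle arrays. Psmb7, the trypsin-like active subunit, had 7509, 8962 and 7613 in GW1516 arrays, 7513, 7275 and 7178 in AICAR arrays, 7626, 8210 and 8561 in combination arrays and 7357, 7098 and 7235 in vehicle arrays. Psmb5 and Psmb7 were above vehicle in all 3 GW1516 arrays, and Psmb6 overlapped it. Their differences for GW1516 were 0.24, 0.10 and 0.15 for Psmb5, Psmb6 and Psmb7, and 0.16, 0.05 and 0.06 without the second array.

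In all, 13 members had their 3 GW1516 arrays above the 3 vehicle arrays, against 6.3% of all genes, and 2 (Psmd5 and Psme1) had them below, against 7.91%. GW1516 arrays 1 and 3 alone lay above vehicle for 15 members, against 11.8% of all genes, and below for 4, against 12%. Of these 15, 6 were beta ring genes: Psmb1, Psmb2, Psmb3, Psmb4, Psmb5 and Psmb7.

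In the alpha ring, Psma5 had signals of 2058, 3017 and 2257 in GW1516 arrays, 2208, 2026 and 2199 in AICAR arrays, 2161, 2064 and 2006 in combination arrays and 1792, 1923 and 2034 in vehicle arrays. Psma2 had 2196, 2992 and 2321 in GW1516 arrays, 2045, 2100 and 2055 in AICAR arrays, 2136, 2125 and 1849 in combination arrays and 2091, 2085 and 2061 in vehicle arrays. Both were above vehicle in every GW1516 array, with differences of 0.33 ± 0.115 (adjusted p 0.436) for Psma5 and 0.25 ± 0.103 (adjusted p 0.49) for Psma2, and of 0.17 and 0.12 without the second array. A further bright probe set of Psma5, with a mean signal of 1636 against 2128, gave 0.26 for GW1516. Without the second array it gave −0.0025, where the brightest gave 0.17. For AICAR it gave 0.04, where the brightest gave 0.16. A dim probe set of Psma5, with a mean signal of 44.9, gave 0.29, 0.17 and 0.28 in these settings. Psma6 had 4479, 4706 and 4183 in GW1516 arrays, 4504, 4257 and 4344 in AICAR arrays, 4298, 4041 and 4238 in combination arrays and 4128, 4357 and 4604 in vehicle arrays. Its groups overlapped throughout, with a difference for GW1516 of 0.03 ± 0.0711, and −0.01 without the second array. Without the second GW1516 array the median of the alpha ring was 0.01, with 4 of 7 above 0, and that of the beta ring was 0.16, with 7 of 7 above 0. These counts are for the brightest probe sets. In the beta ring, the second probe set gave −0.16 for Psmb4 and 0.36 for Psmb3 without that array. Dim further ones of Psmb1 gave −0.19 and 0.17. The difference between the rings was not tested.

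Among the 19S ATPases, Psmc4 had signals of 1611, 2527 and 1600 in GW1516 arrays, 1571, 1629 and 1565 in AICAR arrays, 1557, 1612 and 1707 in combination arrays and 1462, 1470 and 1542 in vehicle arrays. Its difference for GW1516 was 0.33 ± 0.136 (adjusted p 0.491), and 0.11 without the second array. A dimmer probe set of Psmc4, with a mean signal of 340 against 1637, gave 0.04 for GW1516 and −0.20 without that array. It gave 0.24 for AICAR and 0.12 for the combination. Psmc5 had 2211, 2554 and 2003 in GW1516 arrays, 1904, 1908 and 1989 in AICAR arrays, 2143, 2055 and 1803 in combination arrays and 2005, 1823 and 1758 in vehicle arrays. For Psmc5 the lowest GW1516 array lay just under the highest vehicle array. Psmc2 had 2942, 4407 and 3243 in GW1516 arrays, 3192, 2970 and 2998 in AICAR arrays, 3058, 3164 and 2877 in combination arrays and 2969, 2862 and 2886 in vehicle arrays. Psmc1 had 1411, 1755 and 1449 in GW1516 arrays, 1588, 1573 and 1621 in AICAR arrays, 1498, 1613 and 1595 in combination arrays and 1406, 1371 and 1512 in vehicle arrays. For Psmc1 the 3 AICAR arrays, not the GW1516 arrays, all lay above vehicle, and the difference without the second GW1516 array was 0.00 ± 0.0712.

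Among the other 19S subunits, Psmd8, a lid subunit, had signals of 4121, 7227 and 4990 in GW1516 arrays, 3893, 3519 and 3632 in AICAR arrays, 3300, 3930 and 4128 in combination arrays and 3302, 3735 and 4373 in vehicle arrays. Its difference for GW1516 was the largest above 0 among the members at 0.49 ± 0.164 (adjusted p 0.423), and 0.26 ± 0.122 without the second array, although 1 vehicle array lay above the lowest GW1516 array. Psmd2, a scaffold of the cap that docks ubiquitin receptors, had 4582, 8097 and 5588 in GW1516 arrays, 5578, 5238 and 5206 in AICAR arrays, 5118, 4494 and 4239 in combination arrays and 4424, 4400 and 4114 in vehicle arrays. All GW1516 and all AICAR arrays of Psmd2 lay above vehicle, with differences of 0.46 ± 0.150 (adjusted p 0.416) for GW1516, 0.23 ± 0.0931 without the second array, and 0.31 ± 0.150 (adjusted p 0.73) for AICAR. In a fit of the AICAR and vehicle arrays alone, which leaves out the spread of the GW1516 arrays, the AICAR difference of Psmd2 was 0.31 ± 0.0495 with an adjusted p of 0.0481, 1 of 28 genes called there. Psmd12, a lid subunit and the nearest to 0 in its class, had 1817, 2401 and 1935 in GW1516 arrays, 1900, 1889 and 2004 in AICAR arrays, 1827, 1712 and 1681 in combination arrays and 2041, 2024 and 1966 in vehicle arrays. Its 3 combination arrays were below vehicle (−0.21 ± 0.0936, adjusted p 0.44).

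**Figure D3:**
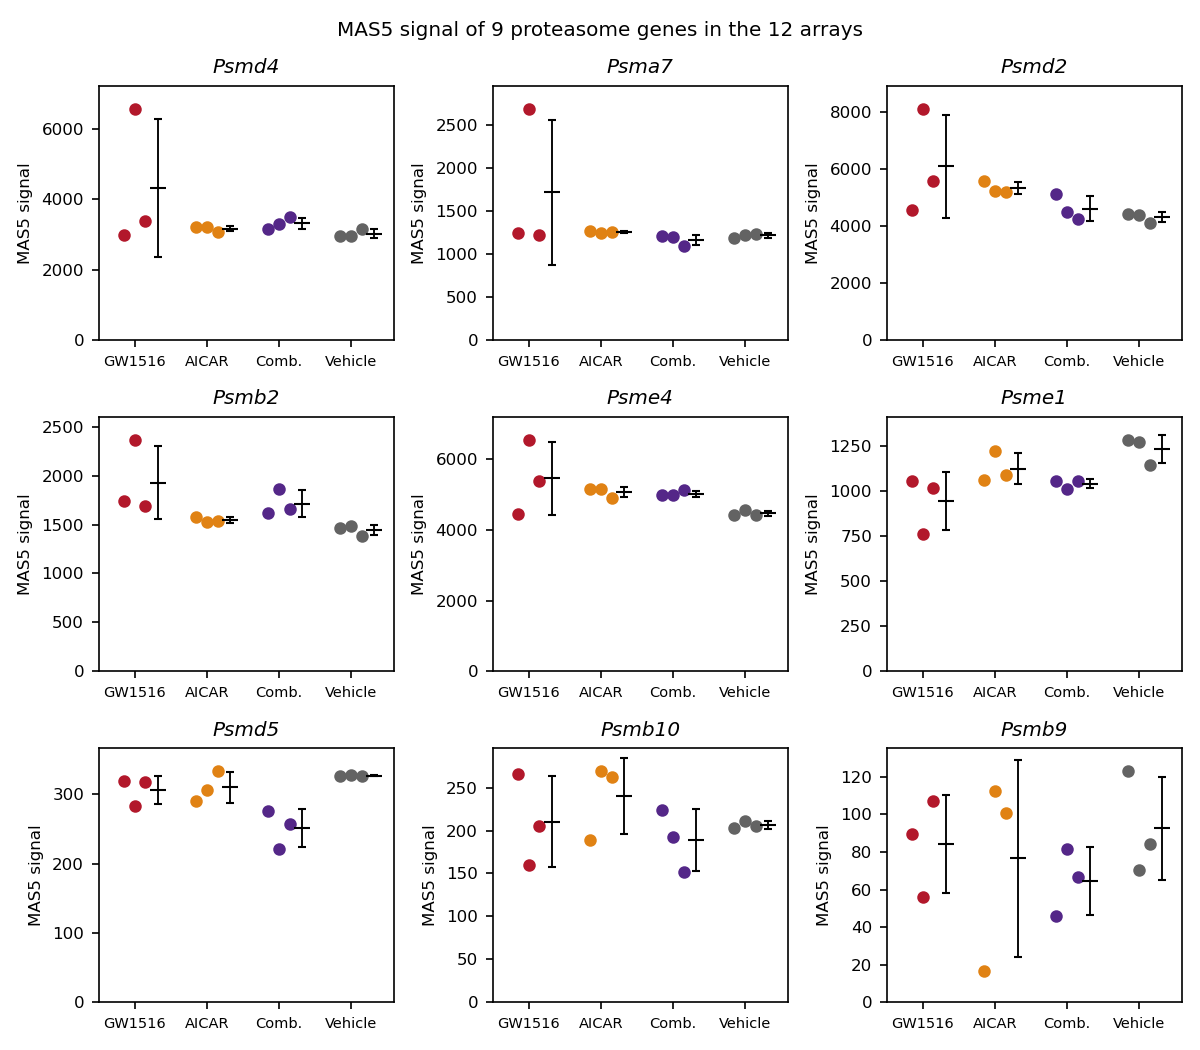
MAS5 signal (linear scale from 0) of 9 proteasome genes in the 12 arrays; each point is an array, and the bar beside a group is its mean ± SD (n = 3). Psmd4 and Psma7 stand high in the second GW1516 array alone, Psmb2 has all 9 treated arrays above vehicle, and Psme1 has its 3 GW1516 arrays between 760.6 and 1054, below vehicle at 1146 to 1283.

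The 3 activators did not share a direction. Psme1, a subunit of the interferon-responsive 11S activator, had signals of 1054, 760.6 and 1019 in GW1516 arrays, 1061, 1220 and 1089 in AICAR arrays, 1057, 1013 and 1054 in combination arrays and 1283, 1274 and 1146 in vehicle arrays. All GW1516 and all combination arrays of Psme1 lay below vehicle, with differences of −0.40 ± 0.114 (adjusted p 0.315) and −0.24 ± 0.114 (adjusted p 0.461), and without the second GW1516 array the first was −0.25 ± 0.0842 (adjusted p 0.585). Psme4, the activator PA200, had 4457, 6538 and 5383 in GW1516 arrays, 5153, 5159 and 4894 in AICAR arrays, 4981, 4973 and 5122 in combination arrays and 4427, 4554 and 4425 in vehicle arrays. Its AICAR and combination arrays all lay above vehicle, by 0.18 ± 0.105 and 0.17 ± 0.105 (adjusted p 0.759 and 0.585). Further bright probe sets of Psme4 had mean signals of 4723 and 4272, against 4977. They gave 0.12 and 0.11 for AICAR, but only 0.02 and 0.04 for the combination. Dim ones past the filter gave −0.19 and 0.53 for AICAR and −0.11 and 0.55 for the combination. Psme3, a nuclear activator, had 572.1, 777.1 and 572.6 in GW1516 arrays, 515.8, 533.9 and 490.3 in AICAR arrays, 507.9, 525.6 and 509.6 in combination arrays and 547.3, 559.6 and 589.5 in vehicle arrays. For Psme3 the AICAR and combination arrays all lay below vehicle (−0.14 in each), and a second probe set gave −0.07 and 0.09 for these comparisons.

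The immunoproteasome subunits were dim and varied within groups. Psmb8, which replaces Psmb5, had signals of 111.0, 120.5 and 119.8 in GW1516 arrays, 79.16, 95.59 and 160.3 in AICAR arrays, 103.1, 100.5 and 55.07 in combination arrays and 155.2, 85.49 and 57.14 in vehicle arrays. Psmb9, which replaces Psmb6, had 89.46, 56.23 and 107.1 in GW1516 arrays, 16.70, 112.5 and 100.6 in AICAR arrays, 45.88, 81.49 and 66.59 in combination arrays and 123.0, 70.40 and 84.12 in vehicle arrays. Psmb10, which replaces Psmb7, had 265.6, 159.9 and 205.7 in GW1516 arrays, 189.4, 269.1 and 262.2 in AICAR arrays, 223.7, 192.7 and 151.8 in combination arrays and 202.4, 211.2 and 205.5 in vehicle arrays. All 3 genes overlapped vehicle in every treated group, and the standard errors of their differences were 0.358, 0.569 and 0.200. In the second GW1516 array the difference from the vehicle mean of Psmb10 less that of Psmb7 was −0.68, and that of Psmb9 less that of Psmb6 was −0.88. For Psmb8 and Psmb5 it was −0.02. Values as low were not particular to that array. Psmb10 less Psmb7 was −0.69 in the third combination array. Psmb9 less Psmb6 was −2.43 in the first AICAR array and −0.93 in the first combination array.

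The assembly chaperones were lower in the combination than in vehicle for 6 of 7 genes (4 of 7 with quantile normalization), with a median of −0.16, and none passed the test. Psmd5, a chaperone of the 19S base, had signals of 319.2, 283.2 and 317.3 in GW1516 arrays, 289.8, 307.0 and 333.5 in AICAR arrays, 275.4, 221.9 and 257.2 in combination arrays and 326.1, 328.1 and 327.0 in vehicle arrays. All 3 combination arrays of Psmd5 lay below all GW1516, AICAR and vehicle arrays, with a difference from vehicle of −0.38 ± 0.115 (adjusted p 0.226), the smallest adjusted p of the members in any comparison. Psmd9, another base chaperone, had 379.5, 271.6 and 338.9 in GW1516 arrays, 353.3, 323.4 and 326.1 in AICAR arrays, 283.3, 264.4 and 248.8 in combination arrays and 329.2, 311.5 and 281.6 in vehicle arrays. Its combination arrays were below all AICAR arrays (−0.33, adjusted p 0.666) and overlapped vehicle.

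Of the chaperones of the alpha ring, Psmg4 had signals of 150.3, 113.5 and 111.5 in GW1516 arrays, 147.1, 160.3 and 175.5 in AICAR arrays, 125.9, 123.5 and 110.3 in combination arrays and 126.5, 176.1 and 120.8 in vehicle arrays. Its partner Psmg3 had 236.8, 264.3 and 232.4 in GW1516 arrays, 247.5, 255.3 and 223.1 in AICAR arrays, 252.2, 214.0 and 199.8 in combination arrays and 184.0, 256.4 and 238.9 in vehicle arrays. Psmg1 had 578.1, 407.4 and 516.0 in GW1516 arrays, 468.2, 408.2 and 521.4 in AICAR arrays, 464.2, 520.3 and 525.5 in combination arrays and 496.2, 465.1 and 419.0 in vehicle arrays. These 3 genes overlapped vehicle in all treated groups. Psmg2, the partner of Psmg1, had 562.5, 469.3 and 635.1 in GW1516 arrays, 546.6, 650.7 and 562.0 in AICAR arrays, 518.3, 569.1 and 621.2 in combination arrays and 517.1, 561.2 and 636.9 in vehicle arrays, also overlapping. Psmc3ip, the meiotic recombination partner that shares the symbol, had −0.64 ± 0.345 for GW1516 (adjusted p 0.573) and −0.35 without the second array, with signals of 118.9, 46.99 and 61.80 in GW1516 arrays and 101.1, 127.5 and 100.7 in vehicle arrays.

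AICAR against vehicle asks what the kinase activator alone did. The median difference over the members was 0.04, against 0.01 over all genes, with 29 of 46 above 0 against 52% of all genes. The constitutive 26S subunits had a median of 0.05, with 20 of 31 above 0. At an unadjusted p under 0.05 there were 0 members, against 6.93% of all genes (3.88% higher and 3.05% lower), and without the second GW1516 array, whose spread enters the shared error, there were 5: Psma5, Psmc1, Psmd2 and Psme4 higher and Psma4 lower (9.35% of all genes). The 3 AICAR arrays lay above vehicle for 8 members, against 9.3% of all genes, and below for 2, against 9.03%. The direction of so small a median depended on the scaling: centring each array on its median shifted the medians of all genes and of the members by −0.12 each, to −0.11 and −0.08.

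**Figure D4:**
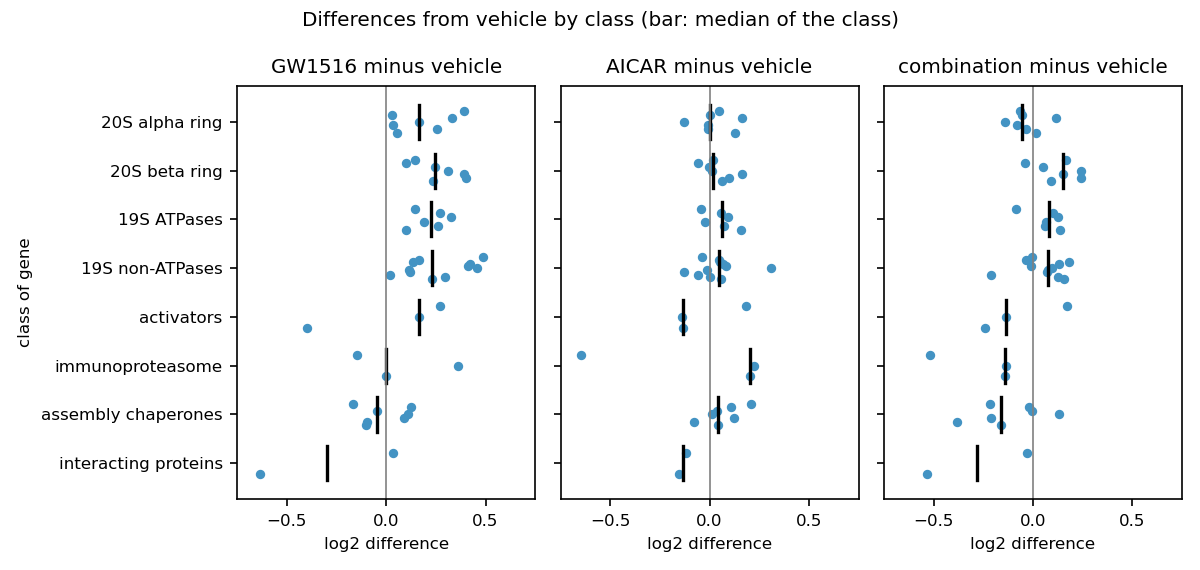
Log2 difference from vehicle of every proteasome gene tested, by class, for GW1516, AICAR and the combination; each point is a gene and the black bar the median of its class. For GW1516 all 31 points of the 20S rings and the 19S classes lie above 0 (30 with quantile normalization), with class medians of 0.16 to 0.24, while for AICAR their medians lie between 0.00 and 0.06.

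The combination against vehicle asks what both drugs did together. The median over the members was −0.0038 and 22 of 46 were above 0, against 49.1% of all genes. Within it, the beta ring had a median of 0.15 with 6 of 7 above 0, the alpha ring −0.06 with 2 of 7, the ATPases 0.08 with 5 of 6, the other 19S subunits 0.08 with 7 of 11, and the members outside the constitutive 26S subunits −0.14 with 2 of 15. With median centring, which shifted the median of all genes by −0.08, the beta ring was at 0.07 and the other 19S subunits at −0.0016. At an unadjusted p under 0.05, 5 members differed, against 10.9% of all genes (5.07% higher and 5.79% lower). These were Psmb2, Psmb7 and the lid subunit Psmd6 higher, by 0.24, 0.17 and 0.18, and Psmd5 and Psmd12 lower. Without the second GW1516 array there were 10, against 14% of all genes: Psmb2, Psmb4, Psmb7, Psmd1, Psmd6 and Psme4 higher (6.55%) and Psma4, Psmd5, Psmd12 and Psme1 lower (7.49%). A further probe set of Psmd6, with a mean signal of 1873 against 5900, gave −0.04 for the combination, where the brightest gave 0.18. For GW1516 it gave −0.06, where the brightest gave 0.13. Further probe sets of Psmb4 and Psme4 are given above. The combination arrays lay above vehicle for 8 members, against 8.9% of all genes, and below for 7, against 9.69%.

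The combination against GW1516 asks what AICAR added on top of the agonist. The fit called 0% of all genes and 0 members here, while at an unadjusted p under 0.05 12 members were lower and 0 higher, against 10.4% of all genes (5.23% lower and 5.15% higher). The median over the members was −0.15, and 7 of 46 were above 0, against 52.1% of all genes. Without the second GW1516 array the median was −0.08, with 14 of 46 above 0, against 48.5% of all genes. In that setting 4 members were lower at an unadjusted p under 0.05 (Psma4, Psmd5, Psmd8 and Psmd9), against 4.75% of all genes. Among the constitutive 26S subunits the largest differences were −0.49 ± 0.164 for Psmd8 (adjusted p 0.355) and −0.46 ± 0.213 for Psma7 (adjusted p 0.479), and −0.27 and −0.08 without the array. For Psma7 the further probe set was at 0.48 for GW1516 and 0.44 for the combination, each against vehicle. The combination arrays lay below all GW1516 arrays for 10 members, against 6.08% of all genes, and above them for 0, against 6.77%.

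The combination against AICAR had 3 members at an unadjusted p under 0.05, all lower (Psmd5, Psmd9 and Psmg4), against 7.32% of all genes (4.04% lower and 3.28% higher), and its fit called 0.0313% of all genes. Without the second GW1516 array, whose spread enters the shared error, there were 8, against 9.8% of all genes: Psmb4, Psmb7 and Psmd13 higher (4.54%) and Psmd2, Psmd5, Psmd9, Psmd12 and Psmg4 lower (5.25%). The combination arrays lay below all AICAR arrays for 8 members, against 7.68% of all genes, and above them for 5, against 6.8%. Of the members 20 of 46 were above 0, against 46.9% of all genes. GW1516 against AICAR had 12 members at that p, 11 higher and Psme1 lower, against 9.15% of all genes (4.01% higher and 5.14% lower), and 3 without the second GW1516 array (Psmb5 and Psmd8 higher and Psmc1 lower), against 7.77% of all genes. In it 0% of all genes were called, and 36 of 46 members were above 0, against 44.3% of all genes. Without the second GW1516 array 31 of 46 were above 0, against 48.3%. The GW1516 arrays lay above all AICAR arrays for 14 members, against 6.48% of all genes, and below them for 1, against 8.15%. The interaction is the AICAR effect in the presence of GW1516 less that in its absence. It had 5 members at that p, all lower, against 6.64% of all genes (3.35% lower), was above 0 for 8 of 46 members, against 49.5% of all genes, and again called 0%. Of these 5, Psmd2 was farthest from 0 at −0.67, with an adjusted p of 0.723, and without the second GW1516 array 3 remained, against 6.34% of all genes. Without that array the interaction was above 0 for 10 of 46 members, against 47.5% of all genes. The AICAR effect had opposite directions in every array without and with GW1516 for 14 members, against 9.49% of all genes, and for 5, against 7.83%, without that array. The test over all 4 groups called 0.11% of all genes, 10 members had an unadjusted p under 0.05 in it, against 10.4% of all genes, and its smallest adjusted p among the members was 0.383.

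The members differed in their spread between arrays of a group. The median SD within a group on the log2 scale was 0.24 in GW1516, 0.06 in AICAR, 0.10 in the combination and 0.06 in vehicle for the members, against 0.23, 0.16, 0.20 and 0.16 for all genes. In GW1516 arrays 1 and 3 alone it was 0.05 for the members. The median standard error of a difference was 0.114 for the members and 0.188 for all genes. The constitutive subunits followed one another closely over the 12 arrays. The median Pearson correlation of a gene with the median of the other members was 0.87 in the alpha ring, 0.87 in the beta ring, 0.92 in the ATPases and 0.85 in the other 19S subunits, against −0.11 in the immunoproteasome subunits and −0.23 in the chaperones. Over the 11 arrays without the second GW1516 array these medians were 0.14, 0.53, 0.26, 0.17, 0.15 and 0.06, so the values over 12 arrays rest on 1 array. Psme1 ran against the others in both, at −0.88 and −0.74. These correlations share arrays and scaling and are descriptions.

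Of the regulators of proteasome genes, Nfe2l1 had signals of 3634, 4095 and 3753 in GW1516 arrays, 3404, 3329 and 3102 in AICAR arrays, 3193, 3690 and 3548 in combination arrays and 3000, 2889 and 2952 in vehicle arrays. All 9 treated arrays lay above vehicle, with differences of 0.38 ± 0.0768 for GW1516 (adjusted p 0.136, and 0.33 without the second array), 0.15 ± 0.0768 for AICAR (adjusted p 0.741) and 0.24 ± 0.0768 for the combination (adjusted p 0.27). Its correlation with the median of the members was 0.71 over 12 arrays and 0.76 over 11. Nfe2l2, the related oxidative stress factor, had 786.2, 1306 and 815.7 in GW1516 arrays, 776.3, 961.1 and 825.2 in AICAR arrays, 971.8, 776.5 and 754.2 in combination arrays and 912.0, 996.7 and 890.0 in vehicle arrays, so that only its second GW1516 array stood above vehicle among the GW1516 arrays. Over the 12 genes of the list on control of proteasome genes, 0 passed the test for GW1516 or AICAR and 1 did for the combination. It was Foxo1, a transcription factor that activates the muscle ubiquitin ligases, with signals of 307.0, 660.2 and 531.9 in GW1516 arrays, 644.7, 709.2 and 666.9 in AICAR arrays, 763.2, 909.8 and 716.5 in combination arrays and 261.8, 254.4 and 276.4 in vehicle arrays (1.59 ± 0.203, adjusted p 0.00405). For AICAR the difference of Foxo1 was 1.35 ± 0.203 with an adjusted p of 0.0561, and of 0.00431 without the second GW1516 array.

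The 2 muscle ubiquitin ligases were high in the same array as the subunits. Trim63 had signals of 2209, 10730 and 2978 in GW1516 arrays, 2267, 2517 and 2357 in AICAR arrays, 2276, 2263 and 2071 in combination arrays and 2319, 2288 and 2149 in vehicle arrays. Fbxo32 had 1507, 11250 and 2607 in GW1516 arrays, 2123, 2541 and 2293 in AICAR arrays, 2140, 1953 and 1749 in combination arrays and 1995, 1839 and 1574 in vehicle arrays. In both the second GW1516 array stood far above the other 11, the first GW1516 array lay within or below the vehicle values, and the difference for GW1516 was 0.88 ± 0.382 (adjusted p 0.497) for Trim63 and 0.98 ± 0.475 (adjusted p 0.531) for Fbxo32. Without that array it was 0.19 for Trim63 and 0.14 for Fbxo32. Of the 15 ligases and related genes tested, 0 passed the test in a comparison with vehicle, and 12 had a GW1516 difference above 0 (9 without the second array).

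**Figure D5:**
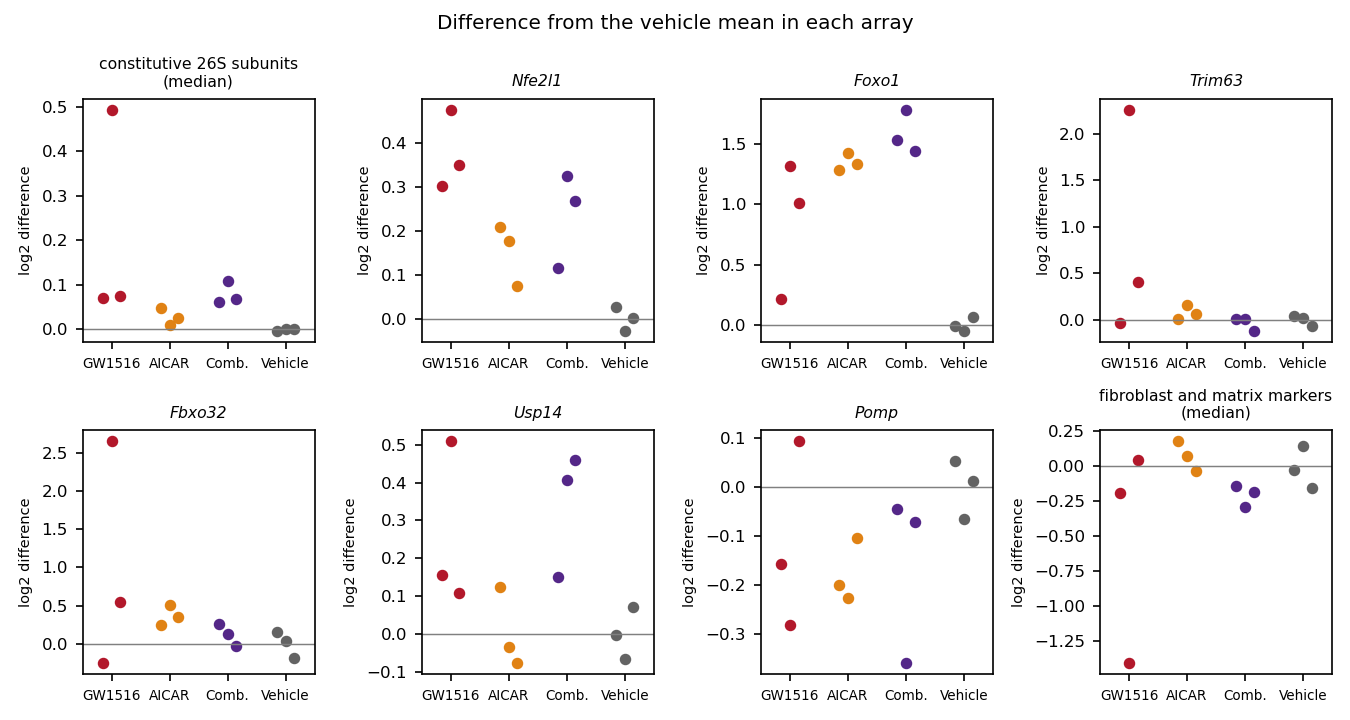
Log2 difference from the vehicle mean in each array (points, grouped by treatment) for the median of the constitutive 26S subunits, 6 genes that act with or on the proteasome and the median of 10 fibroblast and matrix markers; vertical scales differ between panels. The second GW1516 array is highest for the subunits (0.49), Trim63 and Fbxo32 and lowest for the fibroblast markers (−1.41), while Nfe2l1 lies above vehicle in all 9 treated arrays.

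Of the 15 proteasome regulators and partners tested, 0 passed the test, with 11 of 15 above 0 for GW1516 and a median of 0.18, and 10 of 15 and 0.04 without the second array. Usp14, a deubiquitinase of the 19S cap, had signals of 677.2, 865.1 and 655.4 in GW1516 arrays, 662.0, 593.1 and 576.6 in AICAR arrays, 674.5, 805.5 and 835.9 in combination arrays and 606.3, 580.8 and 638.3 in vehicle arrays. Its GW1516 and combination arrays lay above vehicle (0.26 and 0.34, adjusted p 0.517 and 0.316), and the first was 0.13 without the second GW1516 array. Uchl5, the other deubiquitinase of the cap, had 716.0, 890.7 and 816.7 in GW1516 arrays, 773.8, 806.9 and 852.1 in AICAR arrays, 742.8, 769.9 and 789.0 in combination arrays and 874.9, 862.9 and 863.7 in vehicle arrays, and its AICAR and combination arrays lay below vehicle. Pomp, the maturation factor of the core, had 1557, 1428 and 1851 in GW1516 arrays, 1511, 1483 and 1615 in AICAR arrays, 1682, 1353 and 1652 in combination arrays and 1801, 1658 and 1750 in vehicle arrays. Psmf1, an inhibitor of the core, had 173.2, 256.9 and 212.9 in GW1516 arrays, 163.7, 150.2 and 144.1 in AICAR arrays, 166.7, 190.4 and 103.5 in combination arrays and 167.0, 197.3 and 167.7 in vehicle arrays. Both were below vehicle in all 3 AICAR arrays and overlapped it in GW1516 and combination arrays. Of 8 ubiquitin and p97 genes tested, 0 passed, with a median of 0.16 for GW1516 and 0.09 without the second array. Among them Vcp, the p97 unfoldase, had 7635, 8862 and 8416 in GW1516 arrays, 7871, 7481 and 7846 in AICAR arrays, 7356, 7858 and 7584 in combination arrays and 7733, 7163 and 7383 in vehicle arrays. The ubiquitin gene Ubb and the receptor gene Adrm1 were not among the genes tested.

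The genes of class I antigen presentation and interferon response, which include Tap1 and Tap2 beside Psmb8 and Psmb9 in the genome, had 0 of 14 past the test, with a median of 0.06 for GW1516 and 0.14 without the second array. Of 10 heat shock and chaperone genes 0 passed, and their median was −0.20 for GW1516, −0.20 for AICAR and −0.25 for the combination. The vehicle arrays differed among themselves, with medians of −0.07, −0.18 and 0.22 from the vehicle mean. In the third, 9 of 10 genes lay above that mean. The summed signal was 29716, 28412 and 36738 in vehicle arrays. It was 25984 to 30993 in GW1516, 26017 to 30596 in AICAR and 25862 to 30337 in the combination, so 2 vehicle arrays lay among the treated ones.

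By Pearson correlation with the per-array median of the proteasome genes over 12 arrays, the most like of the other genes were Snhg8 (0.98), Trim63 (0.97), Ipo13 (0.97), Oser1 (0.97), 2410006H16Rik (0.96), Cltb (0.96), Slc12a2 (0.96), Elk4 (0.96), Samd4 (0.96) and Eif4ebp1 (0.96). Over the 11 arrays without the second GW1516 array they were Sod1 (0.96), Map2k1 (0.91), P4hb (0.88), Exosc5 (0.87), Yap1 (0.87), Mzt2 (0.86), Ift20 (0.84), Ipo13 (0.84), Mitf (0.83) and Babam2 (0.83). Ipo13, an importin of the nuclear transport machinery, was on both lists, and Fbxo32 had 0.93 over 12 arrays and 0.09 over 11.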

How the data were processed

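The deposited intensity values were MAS5 signals, per the submitters' processing notes, with 1 value per probe set on a linear scale. They had been scaled by the authors to a trimmed mean of 200 on every array, which the values bear out. The software version is not given in the sources used here. The median signal of an array was 45.4 to 54.2, lowest in the second GW1516 array. Gene symbols came from GEO's annotation of the platform, whose date is 2016.

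Signals below 1 were set to 1 and log2 was taken without further scaling. The lowest 40% of probe sets were left out, and each gene with 1 symbol was represented by its brightest probe set. A linear model with 4 group means was fitted to all 12 arrays (limma 3.58.1, R 4.3.3), with gene variances moderated towards an intensity trend (8 residual and 5.91 prior degrees of freedom). Two-sided p-values were adjusted by Benjamini-Hochberg over 12771 genes. Errors are standard errors. The code was tested on simulated data. Medians over a class carry no test. Values per array are given for any member called (there was none), for the 3 largest GW1516 differences and the 1 nearest to 0 in each class, for the 3 pairs of exchangeable beta subunits and for set partner genes; Psmd5, Psmd9 and Psmc3ip were added after their values were seen. The members, classes and lists were chosen with earlier results of these data known. Alternatives changed the scaling, floor, filter, probe set summary, variance model, samples in the fit, replicate block or left out 1 array. Figures were drawn with matplotlib 3.10.9.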

Additional observations from a re-analysis of the deposited data

Results flagged for a closer look

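For 14 proteasome genes the effect of AICAR had opposite directions without and with GW1516: every AICAR array lay on one side of the vehicle mean and every combination array on the other side of the GW1516 mean. The same held for 9.49% of all genes, and without the second GW1516 array for 5 proteasome genes, against 7.83%. The value is the interaction on the log2 scale. It was −0.67 for Psmd2, −0.50 for Psmd3, −0.50 for Psma7, −0.42 for Psmd9, −0.40 for Psmb3, −0.38 for Psma5 and −0.36 for Psmd4. It was −0.29 for Psmc4, −0.28 for Psme4, −0.27 for Psmc2, −0.26 for Psmb2, −0.23 for Psmc5 and −0.21 for Psmb1. For Psme1 alone it was positive, at 0.29. The interaction test of the difference itself passed for none of them, and the smallest adjusted p was 0.723 (Psmd2 and Psmb3). The GW1516 mean in this contrast includes the second GW1516 array, in which 12 of the 14 had their highest signal of all 12 arrays. Without that array 3 proteasome genes (Psmb3, Psmd2 and Psmd9) had an interaction below 0 at an unadjusted p under 0.05, against 3.42% of all genes, and 0 passed the adjusted test.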

How the results depend on the processing

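With 3 pooled samples a group, the count of proteasome genes called was 0 in the 8 tests and stayed 0 in 181 of 182 values under other settings. The exception was 1 gene, Psmd2, called for AICAR with only the groups compared (0.31, adjusted p 0.0481). The median AICAR difference was 0.0395, and it was 0.0567 with quantile normalization, −0.0777 with median centring and 0.0545 with the mean of probe sets. The median combination difference was −0.0038, and −0.0823 with median centring. With 1 array left out in turn, the median ranged from 0.0144 to 0.0396 for AICAR, from −0.0038 to 0.0360 for the combination, from 0.0675 to 0.2185 for GW1516 and from −0.2112 to −0.0754 for the combination against GW1516, and the GW1516 value was lowest without its second array. Median centring shifted the median of all genes as much as that of the members, by −0.12 for AICAR and −0.08 for the combination. The cause of the other shifts was not tested. All 31 constitutive subunits were highest in the second GW1516 array with median centring and 30 of 31 with quantile normalization. Replicate numbers did not pair the samples. After removal of the group means, same-numbered arrays of different groups had correlations of −0.1082 to 0.0694, and 0 of 18 were over 0.1. Arrays of different groups and numbers had −0.0745 to 0.0949. Without that removal, the correlations between arrays were 0.9472 to 0.9678. With the replicate number as a block the count called was 0 in the comparisons fitted. Of 3174 values of single members under other settings, 3040 kept direction and call, 133 changed sign without being called, and 1 was newly called. Leaving out the 2 interacting proteins, an alternative chosen after seeing the data, gave medians of 0.16 for GW1516, 0.04 for AICAR, 0.01 for the combination and −0.16 for the combination against GW1516.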
